A study of Mus musculus with 12 samples.

Results

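The chemokine system of the mouse left atrium (LA) was described from the 57 chemokine and chemokine receptor genes detected in 12 bulk RNA-sequencing libraries. Members were taken by gene name as every *Ccl*, *Cxcl* and *Cx3cl1* ligand and every *Ccr*, *Cxcr*, *Cx3cr1* and *Ackr* receptor with at least 1 count in any library, which left 57 of the 54658 gene names in the count table. The name rule fits 61 genes, and 4 of them (*Ccl19-ps3*, *Ccl21b*, *Ccl27b* and *Cxcl15*) had no count in any library. The 57 genes comprised 34 ligands, 22 receptors and the pseudogene *Ccl19-ps1*.

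The 6 iNICD mice carried αMHC-rtTA and tetO-NICD, so that doxycycline induced the Notch1 intracellular domain, the active form of the receptor. The 6 control mice carried αMHC-rtTA alone. Both groups were 2 to 3 months old and ate doxycycline chow for 3 weeks with no washout, and the controls therefore shared the transactivator and the drug. The controls were 4 females and 2 males, and the iNICD mice were 3 females and 3 males. The αMHC promoter drives the transgene in cardiomyocytes, whereas RNA came from whole LA tissue, in which most chemokine genes are known from leukocytes, endothelium and fibroblasts. In such bulk RNA, fewer cells of a type and less RNA per cell cannot be told apart. Each library came from its own mouse, as the labels give it.

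Chemokines are small secreted proteins that bind glycosaminoglycans on cells and matrix and guide leukocytes along gradients. They are classed by the spacing of their first cysteines into CC, CXC and CX3C groups, and they act on G protein-coupled receptors that signal through inhibitory G proteins. Inflammatory chemokines such as *Ccl2* are induced on demand and draw monocytes, ELR-positive CXC chemokines draw neutrophils, interferon-inducible CXC chemokines draw activated T cells, and homeostatic chemokines such as *Cxcl12* are made constantly. Atypical receptors (*Ackr*) bind chemokines without G protein signaling and remove or transport them.

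Depth and sample identity were examined first. The libraries held 21432632 to 27182038 counts. *Notch1*, which the transgene encodes in part, had 2335 to 3311 counts in controls and 71187 to 107667 in iNICD libraries, so the genotypes matched their labels. The summed level of 8 atrial cardiomyocyte markers was 85882 to 110047 normalized CPM (read counts relative to library size, scaled by the trimmed mean of M values) in controls and 56812 to 69943 in iNICD, and 5 of the 8 (*Nppa*, *Myl4*, *Myl7*, *Sln* and *Tnnt2*) fell in the edgeR test described next, *Myl7* in only 4 of 12 fits with a library left out and the other 4 in all 12. Their part in any chemokine value was not tested. Control replicate 5, a male, stood apart from the other controls: 13.2% of all tested genes differed by 2-fold or more from the average of the remaining controls, against 1.62 to 3.41% for the other libraries measured in the same way within their groups. In control replicate 5, 4.50% of all tested genes were higher and 8.74% lower by that measure. Its scaling factor was 0.8631, against 0.9735 to 1.0605 in the other libraries, and enters each normalized CPM of this library. Of the 28 tested chemokine and receptor genes 6 changed the sign of their difference between groups without this library (*Ackr2*, *Ccl2*, *Ccl7*, *Ccr1*, *Cxcl12* and *Cxcr4*).

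No chemokine or receptor gene passed the test between iNICD and control LA. Only 28 of the 57 genes exceeded 1 CPM in at least 6 libraries and were tested, 18 of them ligands, 9 receptors and 1 the pseudogene. Under the quasi-likelihood test of edgeR, 0 of these 28 passed a Benjamini-Hochberg adjusted p of 0.05 taken over the 13541 genes tested, whereas 4.12% of all tested genes did (2.78% higher and 1.34% lower in iNICD). At an unadjusted p under 0.05 there were 2 of 28, against 17.4% of all tested genes. DESeq2 and the edgeR exact test also called 0 of 28, against 7.84% and 5.69% of the genes that each tested. None of the 28 had control and iNICD libraries that did not overlap, against 3.83% of all tested genes.

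The log2 fold changes (iNICD over control) of the 28 genes had a median of 0.17, beside −0.01 over all tested genes, with 18 above 0 and 10 below. Their median standard error was 0.36, compared with 0.12 over all tested genes. The 95% interval lay wholly within a 2-fold change in either direction for 10 genes and reached 2-fold for the other 18, for 13 of them upward and for 7 downward. For most of these genes the interval thus still held a 2-fold difference at this depth and number of mice.

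**Figure D1:**
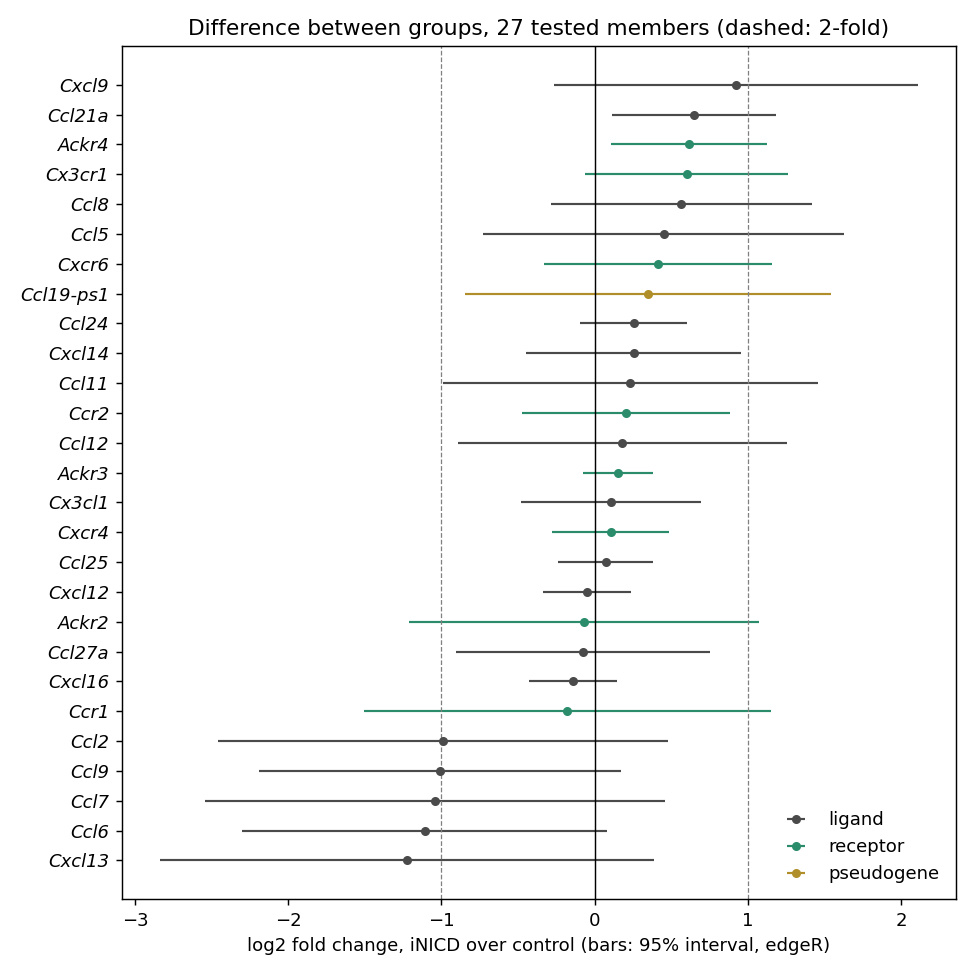
Log2 fold change (iNICD over control) of 27 of the 28 tested chemokine and receptor genes in order of size, with points for the edgeR estimate, bars for the 95% interval, dashed lines at a 2-fold change and colors for ligands, receptors and the pseudogene. The intervals are wide for *Ccl6*, *Ccl9*, *Ccl2* and *Ccl7* and narrow for *Cxcl12* and *Ackr3*, and no gene passed the adjusted threshold of 0.05.

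Levels between genes were compared as CPM per kilobase of the deposited gene length. Across all 12 libraries the ligands with the highest level were *Ccl6* (18.9 CPM per kb), *Cxcl12* (17.0) and *Cxcl14* (10.6), followed by *Ccl8* (9.70), *Cxcl16* (8.58) and *Ccl9* (5.10). The rank of *Ccl6* rested on control replicate 5: its control mean was 25.9 ± 31.3 CPM per kb (SD, n = 6) with that library and 13.4 ± 6.83 (n = 5) without it, which overlaps *Cxcl12* at 16.3 ± 3.20 without the same library. The rank of *Ccl9* did too, since its mean over the other 11 libraries was 3.41 CPM per kb, under *Ccl11* (3.86) and *Ccl21a* (3.79). Among receptors, *Ackr3* (18.4 CPM per kb) exceeded *Cxcr4* (4.20) and *Ackr2* (1.87) beyond their spread, and *Ackr2* was at 1.46 without control replicate 5. Counted as CPM without length, *Cxcl12* alone made up 33.2 to 57.4% of the summed ligand signal of a library.

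**Figure D2:**
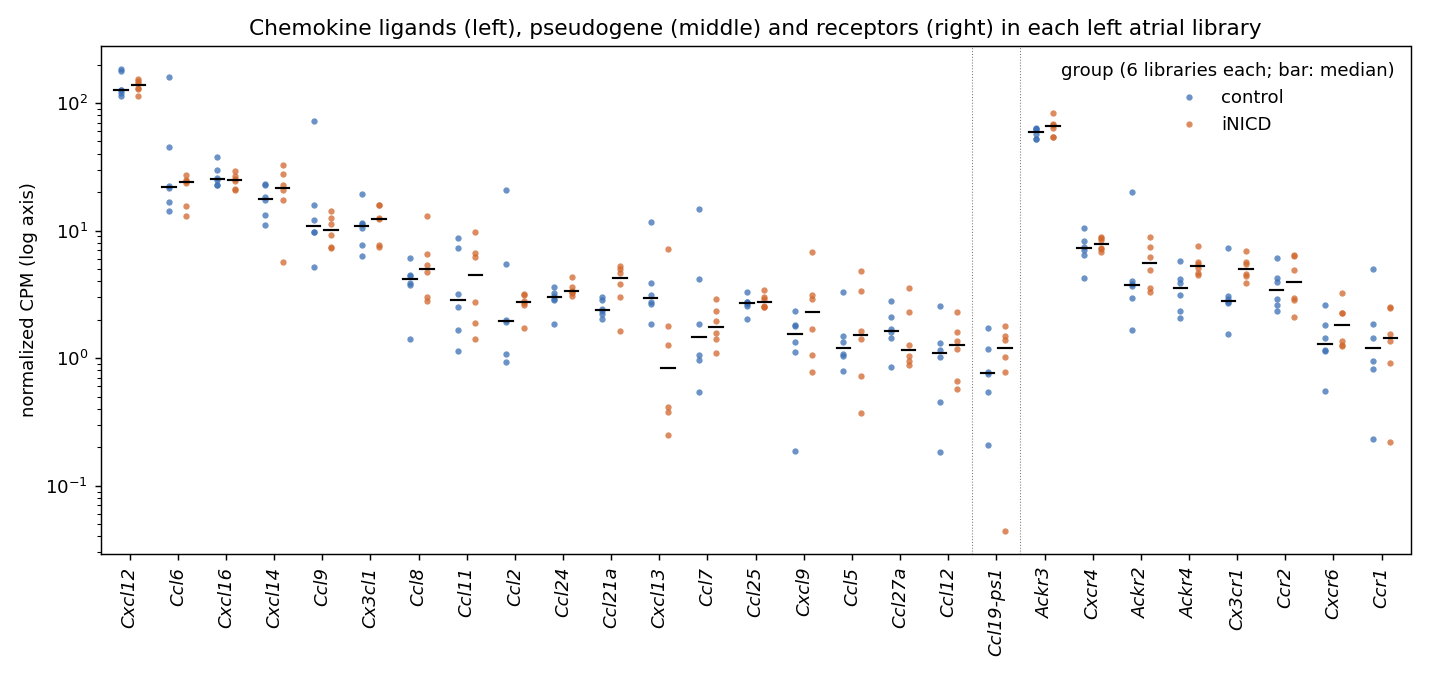
Normalized CPM (log axis) of 27 of the 28 tested members, ligands at the left and receptors at the right in order of level, with a point for each of the 6 control and 6 iNICD libraries and a bar at each group median. *Cxcl12* lies between 113 and 184 CPM in every library, and *Ccl6* and *Ccl9* each have 1 control library, replicate 5, far above the rest.

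Summed over all 34 ligands, the level was 214 to 556 CPM in controls with a median of 239, and 236 to 297 in iNICD with a median of 265. The highest control sum belonged to replicate 5, the next was 354 CPM, and the groups overlapped with or without it. Summed receptors measured 79.2 to 112 CPM in controls (median 89.8) and 90.5 to 127 in iNICD (median 103). The highest control was again replicate 5, the other controls reached 92.2 CPM, and 5 of 6 iNICD libraries lay above that. The lowest of those 5 was iNICD replicate 5, at 92.24 CPM against 92.21 in control replicate 2. *Ackr3* alone was at 52.1 to 63.9 CPM in controls and 53.6 to 82.7 in iNICD, most of each receptor sum.

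For *Cxcl12* and both of its receptors the interval lay within a 2-fold change. *Cxcl12* encodes the homeostatic ligand that retains and recruits progenitors and supports vessel growth. Its normalized level was 113 CPM in the lowest control, 126 at the median and 184 in the highest, and 113, 138 and 154 CPM in iNICD. The ranges overlapped almost completely, and the log2 fold change was −0.05 with a 95% interval of −0.33 to 0.24 (SE 0.13, edgeR adjusted p = 0.880, exact permutation p = 0.736). *Ackr3*, the scavenging receptor for *Cxcl12*, was at 52.1, 59.4 and 63.9 CPM in controls and at 53.6, 65.7 and 82.7 CPM in iNICD. Of the iNICD libraries 3 lay above every control, the others lay within the control range, and the log2 fold change of 0.16 had an interval of −0.07 to 0.38 (SE 0.11, edgeR adjusted p = 0.477). *Cxcr4*, the signaling receptor for *Cxcl12*, was at 4.21, 7.26 and 10.4 CPM in controls and at 6.73, 7.88 and 8.87 CPM in iNICD. All iNICD values of *Cxcr4* lay inside the control range, and the log2 fold change was 0.11 (SE 0.18, interval −0.28 to 0.49, edgeR adjusted p = 0.801). The signs of the *Cxcl12* and *Cxcr4* values turned when control replicate 5 was left out, to 0.04 and −0.01.

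*Cxcl14*, a broadly expressed chemokine of epithelia and stroma, was at 10.98, 17.8 and 23.4 CPM in controls and 5.64, 21.7 and 32.4 CPM in iNICD, with both the lowest and the highest library in iNICD. Its log2 fold change was 0.25 (SE 0.32, edgeR adjusted p = 0.726). With a library left out it ran from 0.09 without iNICD replicate 5 to 0.45 without iNICD replicate 2. *Cxcl16*, a membrane-bound ligand that is shed, was at 22.6, 25.2 and 37.5 CPM in controls and 20.96, 25.03 and 29.2 CPM in iNICD, nearly the same medians (log2 fold change −0.14, interval −0.43 to 0.14). Without control replicate 5, the highest library, the log2 fold change was −0.03. Exons of *Cxcl16* share 18.3% of their bases with *Zmynd15* on the opposite strand, and whether the counting used strand is not given in the sources used here. *Cxcr6*, its receptor on T cells, had a log2 fold change of 0.41 (interval −0.33 to 1.16), and of 0.66 without control replicate 5.

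*Cxcl13*, the B cell attractant, had the most negative log2 fold change of the 28 genes and the widest interval. Controls were at 1.85, 2.96 and 11.6 CPM and iNICD libraries at 0.251, 0.844 and 7.10 CPM. The replicate numbered 2 was the highest of each group, both from females, and the remaining 5 iNICD libraries (0.251 to 1.79 CPM) lay below every control. The log2 fold change was −1.22 (SE 0.75, interval −2.84 to 0.39, edgeR adjusted p = 0.426, exact permutation p = 0.247). Without iNICD replicate 2 it was −2.39 with an adjusted p of 0.0598, and without control replicate 2 it was −0.63 (edgeR). *Cxcr5*, the receptor for *Cxcl13*, had 31 counts over all 12 libraries and was not tested. B cell markers summed to 13.9 to 19.2 CPM in controls and 16.1 to 22.1 CPM in iNICD, and their part was not tested.

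The genes with the lowest unadjusted p among those higher in iNICD were *Ackr4*, *Ccl21a* and *Cx3cr1*. *Ackr4* is the scavenging receptor of CCL19, CCL21 and CCL25 on lymphatic and stromal cells. It was at 2.06, 3.52 and 5.78 CPM in controls and 4.47, 5.25 and 7.51 CPM in iNICD, where the lowest iNICD library was above the control median. The log2 fold change was 0.62 (SE 0.24, interval 0.11 to 1.13, edgeR adjusted p = 0.185), and the exact permutation p was 0.026, not adjusted for the other genes. With a library left out the log2 fold change ran from 0.50 without control replicate 5 to 0.81 without control replicate 6 (edgeR adjusted p = 0.219 and 0.0556). Exons of *Ackr4* share 8.90% of their bases with *Acad11* on the opposite strand.

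*Ccl21a*, which draws dendritic cells and T cells into lymphatics, was at 2.01, 2.38 and 3.00 CPM in controls and 1.63, 4.22 and 5.28 CPM in iNICD. The lowest value of all was iNICD replicate 2, and the log2 fold change was 0.65 (SE 0.25, interval 0.11 to 1.18, edgeR adjusted p = 0.185, exact permutation p = 0.0433). Without iNICD replicate 2 the log2 fold change was 0.81 and passed the threshold (edgeR adjusted p = 0.0277), where 3.35% of all tested genes passed. Without iNICD replicate 1 it was 0.54 (edgeR adjusted p = 0.352). The mouse genome holds near-identical copies of this gene, so reads assigned to *Ccl21a* are uncertain, as are those of *Ccl19*, *Ccl19-ps1* and *Ccl27a*. *Ccr7*, the signaling receptor for CCL19 and CCL21, had 70 counts in all and was not tested. The 5 lymphatic endothelium markers summed to 117 to 175 CPM in controls and 136 to 181 CPM in iNICD, and 0 of 5 passed the test (1 at an unadjusted p under 0.05).

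*Cx3cr1*, the fractalkine receptor of monocytes and resident macrophages, was at 1.54, 2.81 and 7.34 CPM in controls and 3.86, 5.01 and 6.88 CPM in iNICD. Control replicate 2 held the highest value of all, and each of the other 5 controls (1.54 to 3.04 CPM) lay below every iNICD library. The log2 fold change was 0.60 over all libraries (SE 0.31, interval −0.06 to 1.26, edgeR adjusted p = 0.335). Without control replicate 2 it was 0.99 and passed the threshold (edgeR adjusted p = 0.0186), where 3.47% of all tested genes passed. Without control replicate 5, the lowest library, it was 0.45 (edgeR adjusted p = 0.423). The ligand *Cx3cl1*, made by endothelium, was at 6.29, 10.8 and 19.5 CPM in controls and 7.48, 12.4 and 15.9 CPM in iNICD, with iNICD wholly inside the control range (log2 fold change 0.11, interval −0.48 to 0.69).

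Macrophage and leukocyte markers gave no call beside these receptors. The 17 macrophage markers summed to 636 to 959 CPM in controls and 632 to 966 CPM in iNICD, and 0 of 17 passed in edgeR in either direction or at an unadjusted p under 0.05. The 10 pan-leukocyte markers summed to 123 to 190 CPM and 122 to 187 CPM, with 0 of 10 called and 1 at an unadjusted p under 0.05. Markers of neutrophils and of T and NK cells were low, with sums of 7.32 to 11.4 and 5.60 to 11.1 CPM in controls and 6.53 to 12.7 and 5.00 to 15.4 CPM in iNICD. Only 2 of 9 neutrophil and 4 of 12 T and NK cell markers were tested, and 0 passed in edgeR or had an unadjusted p under 0.05. Monocyte markers summed to 274 to 512 CPM in controls and 194 to 373 CPM in iNICD, with 3 of 9 tested, 0 called and 1 at an unadjusted p under 0.05.

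The inflammatory CC ligands *Ccl6*, *Ccl9*, *Ccl2* and *Ccl7* had log2 fold changes from −1.11 to −0.99 that rested on control replicate 5, and without it the largest in size was 0.24. *Ccl6* and its neighbor *Ccl9* encode ligands of *Ccr1* made mainly by myeloid cells, and *Ccl2* and *Ccl7* encode the ligands of *Ccr2* that mobilize monocytes. *Ccl6* was at 14.2, 22.0 and 159 CPM in controls and 13.05, 24.1 and 27.3 CPM in iNICD. *Ccl9* was at 5.18, 10.9 and 72.1 CPM in controls and 7.27, 10.2 and 14.2 CPM in iNICD. The medians of the 2 groups were close for both genes, and the single highest value was control replicate 5. The log2 fold changes were −1.11 for *Ccl6* (SE 0.55, edgeR adjusted p = 0.322) and −1.01 for *Ccl9* (SE 0.55, edgeR adjusted p = 0.365), and without that library they were −0.16 and −0.03.

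In the same library *Ccl2* reached 20.9 CPM against 0.925 to 5.42 in the other controls, and *Ccl7* reached 14.8 against 0.538 to 4.17 CPM. As ratios to the mean of the other 5 controls, *Ccl2* was 9.25-fold, *Ccl7* 8.59-fold, *Ccl9* 6.87-fold, *Ccl6* 6.63-fold and *Ackr2* 6.21-fold higher. *Ackr2* is the scavenger of inflammatory CC chemokines. The receptors *Ccr1* and *Cxcr6* were 4.67-fold and 2.14-fold higher. *Ccl11* was 2.10-fold higher at 7.25 CPM, but the other male control, replicate 6, was higher still at 8.75 CPM, and the sexes are compared further on. By contrast, *Cxcl9* was at 0.187 CPM against 1.12 to 2.33 in the other controls, and *Cx3cr1* at 1.54 against 2.68 to 7.34 CPM. On a log2 scale with 0.1 CPM added, 9 members were at least 2-fold higher and 2 at least 2-fold lower in this library than the mean of the others, 39.3% of the 28, against 13.2% of all tested genes. Measured the same way, the other libraries had 1 to 11 such members and 1.62 to 3.41% of all tested genes, where the mean for each other control includes replicate 5.

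**Figure D3:**
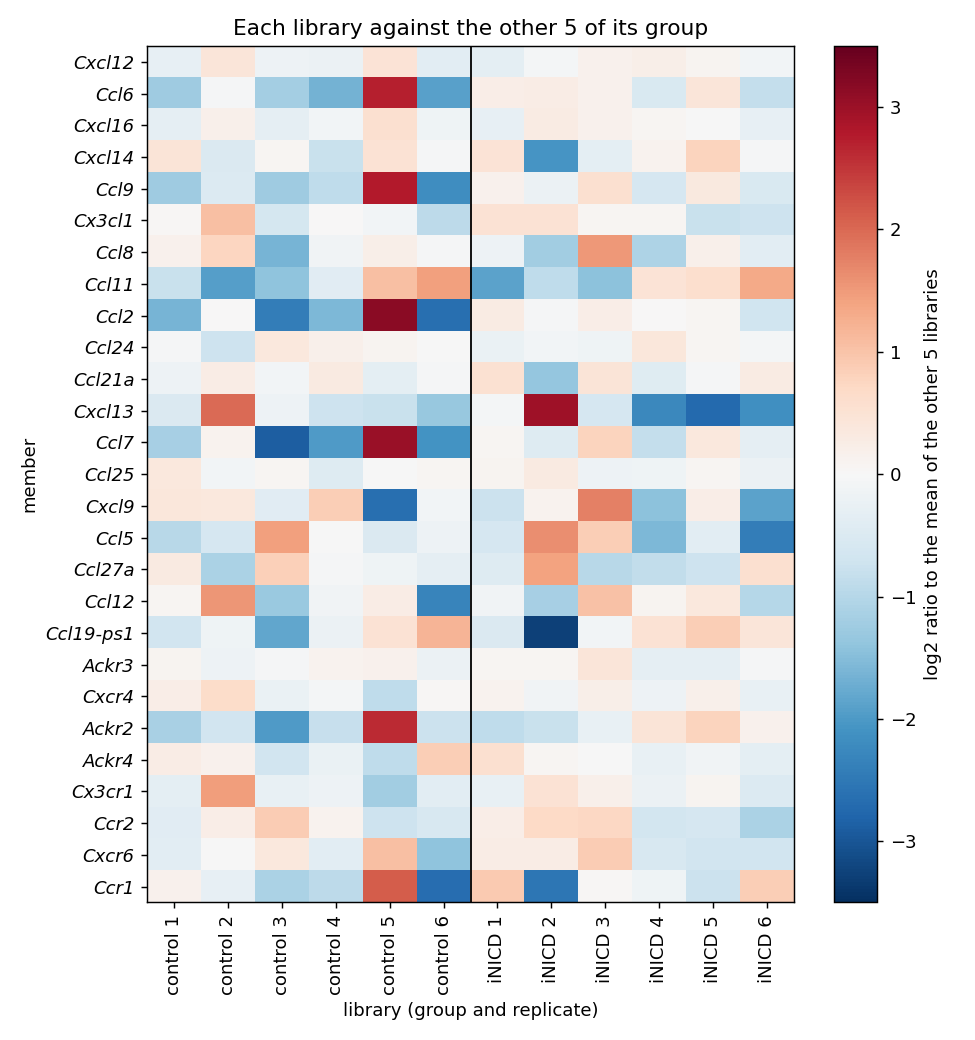
Difference of each library from the mean of the other 5 libraries of its group, on a log2 scale with 0.1 CPM added, for 27 of the 28 tested members (rows) in the 12 libraries (columns). Red is higher and blue lower, with the color scale ending at a fixed limit in both directions. Control replicate 5 is high for *Ccl2*, *Ccl7*, *Ccl9*, *Ccl6* and *Ackr2* and low for *Cxcl9*.

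*Ccl2*, *Ccl7*, *Ccl6* and *Ccl9*, each highest in control replicate 5, lie on chromosome 11 (GRCm38, GENCODE M21). *Ccl2* (82035571-82037453) and *Ccl7* (82045712-82047525) belong to a cluster of 6 members, with *Ccl11* (82057823-82062955) next to them, that spans chr11:82035571-82305690. *Ccl9* and *Ccl6* belong to a cluster of 5 with *Ccl5*, *Ccl3* and *Ccl4* at chr11:83525778-83664683. The receptors *Ccr1* and *Cxcr6* lie on chromosome 9. Neighbors were not uniformly high: *Ccl8* and *Ccl12*, in the first cluster, were 1.15-fold and 1.21-fold of the mean of the other controls.

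The summed levels of several lists are given for this library beside the other controls, with no test. NF-kappaB pathway genes and targets summed to 793 CPM there against 439 to 547 in the other controls, inflammatory cytokines to 240 against 138 to 173 CPM, macrophage markers to 959 against 636 to 838 CPM, and monocyte markers to 512 against 274 to 504 CPM, so that the monocyte sum was close to that of another control and the macrophage sum lay inside the iNICD range. Pan-leukocyte markers, at 172 CPM, lay inside the other controls at 123 to 190 CPM. Blood endothelium (2239 against 1613 to 1863 CPM) and smooth muscle and pericyte markers (903 against 486 to 762) were also highest there. So were atrial cardiomyocyte (110047 against 85882 to 96935 CPM) and platelet markers (26.7 against 13.4 to 19.4). Dendritic cell markers were lowest there, at 84.7 against 202 to 388 CPM. Fibroblast markers were lowest too, at 5614 against 6925 to 8403 CPM, as were mast cell markers, at 4.59 against 5.65 to 10.2 CPM. The part of these in the chemokine values was not tested.

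Promoters are shown for a pair of neighbors that stood high together and, with the ELR-positive ligand *Cxcl1*, for a gene treated next. They are the 300 bases from 250 before to 50 after the start site in RefSeq (GRCm38.p6), 5′ to 3′ on the gene's strand, with capitals marking matches on either strand to TGGGAA (the core of the site of RBPJ, the DNA-binding partner of the Notch intracellular domain) or to the NF-kappaB motif. The *Ccl6* promoter (chr11:83593038-83593337, minus strand) held neither. The *Ccl9* promoter (chr11:83578587-83578886, minus strand) held both, and the *Cxcl1* promoter (chr5:90890995-90891294, plus strand) held overlapping NF-kappaB matches.
Ccl6: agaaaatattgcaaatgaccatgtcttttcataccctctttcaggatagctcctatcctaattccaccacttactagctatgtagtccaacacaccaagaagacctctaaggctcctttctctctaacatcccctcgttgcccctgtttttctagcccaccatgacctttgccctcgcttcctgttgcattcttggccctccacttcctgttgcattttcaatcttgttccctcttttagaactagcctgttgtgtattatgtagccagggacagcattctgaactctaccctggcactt
Ccl9: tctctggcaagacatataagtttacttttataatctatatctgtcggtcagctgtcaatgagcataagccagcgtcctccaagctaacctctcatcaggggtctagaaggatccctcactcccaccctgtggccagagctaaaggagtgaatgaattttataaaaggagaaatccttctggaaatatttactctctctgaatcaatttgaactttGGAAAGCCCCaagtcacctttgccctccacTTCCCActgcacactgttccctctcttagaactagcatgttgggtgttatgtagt
Cxcl1: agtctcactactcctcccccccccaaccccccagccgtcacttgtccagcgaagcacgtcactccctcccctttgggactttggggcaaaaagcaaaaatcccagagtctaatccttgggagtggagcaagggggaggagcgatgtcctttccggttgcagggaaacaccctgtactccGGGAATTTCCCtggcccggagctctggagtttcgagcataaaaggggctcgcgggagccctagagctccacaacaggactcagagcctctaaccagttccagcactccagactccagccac

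Searched on both strands, TGGGAA was in 14 of 45 promoters of 41 members (31.1%) and in 25.6% of all 32851 promoters of that length. The NF-kappaB motif was in 12 of 45 (26.7%) and in 8.46% of all, and its matches can overlap TGGGAA. The interferon-stimulated response element, written as GAAA, any 2 bases and GAAA, was in 3 of 45 (6.67%) and in 3.44% of all. These shares describe letters in a window, several members have more than 1 promoter, and clustered genes share ancestry.

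The other 5 tested inflammatory CC ligands had log2 fold changes above 0, and none passed. Of the 16 in this class 9 were tested, with log2 fold changes from −1.11 to 0.57 and a median of 0.18, and the 4 below 0 were the genes that rested on control replicate 5. *Ccl8*, a ligand of *Ccr8*, was at 1.41, 4.14 and 6.09 CPM in controls and 2.78, 5.02 and 13.1 CPM in iNICD. Its highest value was iNICD replicate 3, and the remaining iNICD libraries reached 6.60 CPM (log2 fold change 0.57, interval −0.28 to 1.42). *Ccl5*, the T cell and monocyte attractant that binds *Ccr1*, was at 0.786, 1.21 and 3.27 CPM in controls and 0.369, 1.53 and 4.85 CPM in iNICD (log2 fold change 0.45, interval −0.73 to 1.63). *Ccl24*, an eosinophil attractant made by macrophages, had a log2 fold change of 0.26 (interval −0.10 to 0.61).

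Of 11 CC receptors, 3 were tested and none passed. *Ccr2* and *Ccr1* had log2 fold changes of 0.20 and −0.18, and without control replicate 5, where *Ccr1* was at 4.96 CPM, they were 0.10 and 0.49. The atypical receptor *Ackr2* was at 1.65, 3.73 and 19.9 CPM in controls and 3.29, 5.56 and 8.82 CPM in iNICD. Its log2 fold change was −0.07 (SE 0.53, edgeR adjusted p = 0.964), and without control replicate 5 it was 0.82 (edgeR adjusted p = 0.135). The value was near 0 over all libraries, and its sign also turned without iNICD replicate 1 (0.047) or iNICD replicate 2 (0.035). Without control replicate 5, 22 of the 28 genes had log2 fold changes above 0 and 6 below, with a median of 0.25, and 0 passed in edgeR, against 5.9% of all tested genes.

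Across 38 known ligand and receptor pairings, both partners were tested in 13, the ligand alone in 8, the receptor alone in 5 and neither in 12. The pairs with both partners present included *Cxcl12* with *Cxcr4* and *Ackr3*, *Cxcl16* with *Cxcr6*, *Cx3cl1* with *Cx3cr1*, and *Ccl21a* with *Ackr4*. For *Ccl2* and *Ccr2* the log2 fold changes were −0.99 and 0.20 with control replicate 5 and 0.24 and 0.10 without it, and neither gene passed.

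Among interferon-inducible ligands of *Cxcr3*, only *Cxcl9* was tested. It was at 0.187, 1.56 and 2.33 CPM in controls and 0.780, 2.31 and 6.75 CPM in iNICD, with overlapping ranges (log2 fold change 0.92, SE 0.55, interval −0.26 to 2.11, edgeR adjusted p = 0.413), and was 0.70 on that scale without control replicate 5. *Cxcl10* ranged from 0.0468 to 6.49 CPM in controls and from 0.568 to 4.27 CPM in iNICD, and *Cxcl11* had 7 counts in all. *Cxcr3* itself had 194 counts over the 12 libraries.

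All 4 ELR-positive ligands fell under the filter, and *Cxcl5* was the only member whose groups did not overlap. These ligands act on neutrophil *Cxcr2*, and *Cxcl5*, *Cxcl3*, *Cxcl1* and *Cxcl2* lie together at chr5:90759360-90905938. *Cxcl5* (chr5:90759360-90761624) had 10, 16, 32, 8, 11 and 7 counts in control replicates 1 to 6 and 4, 6, 4, 7, 3 and 1 counts in iNICD replicates 1 to 6. In normalized CPM the controls were at 0.316, 0.464 and 1.32 and the iNICD libraries at 0.041, 0.154 and 0.265, so every iNICD library lay below every control. The exact permutation p of 0.00216 is the smallest that 6 against 6 can give, and it is not adjusted for the choice of this gene among 57. Over all 29835 genes with any count, 1.97% had groups that did not overlap.

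The call for *Cxcl5* depended on the test. With the filter lowered to at least 10 counts over all libraries, 48 members were tested, 0 passed and 4 had an unadjusted p under 0.05, while 2.64% of all 20871 genes passed and 14.2% had an unadjusted p under 0.05. In that fit the log2 fold change of *Cxcl5* was −1.77 (SE 0.46, edgeR quasi-likelihood adjusted p = 0.0586). On the same genes *Cxcl5* passed in DESeq2 (−1.81, adjusted p = 0.0123, where 6.35% of genes passed) and in the edgeR exact test (adjusted p = 0.0131, where 3.80% passed). With each library left out in turn it did not pass the quasi-likelihood test in any of 12 fits (log2 fold change −1.95 to −1.35, edgeR adjusted p 0.0546 to 0.123). The fits with DESeq2 and with the exact method were added after these values were seen.

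*Cxcl1*, whose promoter is printed above, had 21 to 73 counts in controls and 11 to 25 in iNICD. Its level was 0.869, 1.42 and 3.42 CPM in controls and 0.447, 0.919 and 0.961 CPM in iNICD, with the highest value in control replicate 5. The groups overlapped, and the log2 fold change was −1.11 (SE 0.35, edgeR quasi-likelihood adjusted p = 0.139), −0.79 without control replicate 5, and it passed in DESeq2 (adjusted p = 0.0408) but not in the edgeR exact test (adjusted p = 0.0795). *Cxcl2* had 32 counts and *Cxcl3* 3 counts over all libraries, and the receptors *Cxcr2* and *Cxcr1* had 20 and 1.

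The 29 members under the filter were 16 ligands and 13 receptors with totals of 1 to 499 counts over the 12 libraries. Of these, 20 had at least 10 counts and 9 had fewer, among them *Ccl20* and *Cxcr1* with 1 count each. They included receptors and ligands of lymphocytes and granulocytes such as *Ccr4*, *Ccr6*, *Ccr8*, *Ccr9*, *Ccl17* and *Ccl22*. None of the 20 with at least 10 counts passed in edgeR's quasi-likelihood test at the lower filter, and those with fewer counts were not tested. Exons of *Ackr1* share 25.7% of their bases with *Cadm3* on the same strand.

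Sex was labelled for each mouse, and *Ccl11* separated males from females in both genotypes. *Ccl11* encodes eotaxin, which attracts eosinophils. It was at 1.14, 1.90 and 3.20 CPM in the 7 females (lowest, median and highest) and 6.25, 7.25 and 9.72 CPM in the 5 males. Every male exceeded every female. The sexes did not overlap for 2 of the 28 tested members, *Ccl11* and *Ccl19-ps1*, against 1.38% of all tested genes, and for 3 of all 57 with *Ccl19*, against 0.798% of genes with any count. With genotype as a covariate the log2 difference (male over female) was 1.90 (SE 0.25, edgeR adjusted p = 0.00606), where 0.288% of all tested genes passed. The exact permutation p was 0.00126, the smallest that 7 against 5 can give, and it is not adjusted for the choice of this gene. *Ccl11* passed in each of 12 fits that left out a library (1.80 to 2.03, edgeR adjusted p 0.00683 to 0.0300) and without control replicate 5 was 1.95, where 0.155 to 1.03% of all tested genes passed over these fits. Between genotypes its log2 fold change was 0.23 (SE 0.57), and 0.48 without control replicate 5. The comparison of sexes was added after the values were seen.

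*Ccl19*, a homeostatic ligand of *Ccr7*, was at 0.447, 0.538 and 0.664 CPM in females and 0.757, 1.203 and 1.64 CPM in males. *Ccl19-ps1* was at 0.0441, 0.751 and 1.02 CPM in females and 1.17, 1.48 and 1.80 CPM in males, with a log2 difference of 1.32 (SE 0.44, edgeR adjusted p = 0.225). Males were higher for both, and reads may be shared between the gene and its pseudogene.

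*Ccr2*, the receptor for *Ccl2* on inflammatory monocytes, was at 2.90, 4.87 and 6.39 CPM in females and 2.09, 2.59 and 2.97 CPM in males. The highest male lay just above the lowest female. The log2 difference of *Ccr2* was −0.98 (SE 0.19, edgeR adjusted p = 0.0582, exact permutation p = 0.00631, not adjusted for the choice of this gene). It passed without control replicate 1 (−1.06, edgeR adjusted p = 0.0331) and without control replicate 6 (−1.05, edgeR adjusted p = 0.0480), where 0.229% and 1.03% of genes passed. In DESeq2, where 3.66% of genes passed, 4 members did: *Ccl11* (1.91, adjusted p = 2.61e-10), *Ccr2* (−0.99, adjusted p = 3.96e-04), *Cxcl13* (−2.21, adjusted p = 0.00618) and *Ackr2* (1.44, adjusted p = 0.0102). In edgeR the log2 difference of *Cxcl13* was −2.13 (adjusted p = 0.155), with females at 1.28 to 11.6 CPM and males at 0.251 to 2.67 CPM. *Ackr2* had its highest male value in control replicate 5. In edgeR its log2 difference was 1.43 (adjusted p = 0.136), it passed without control replicate 6 (1.64, adjusted p = 0.0428), and without control replicate 5 it was 0.73 (adjusted p = 0.199).

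**Figure D4:**
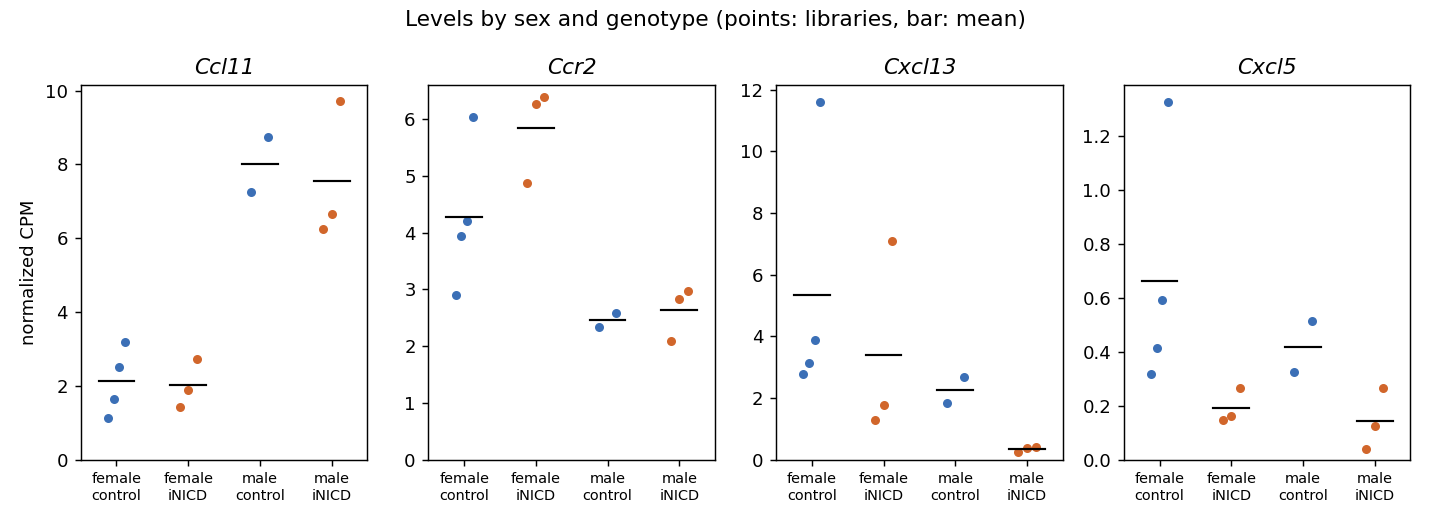
Normalized CPM of *Ccl11*, *Ccr2*, *Cxcl13* and *Cxcl5* in each library by sex and genotype, with 1 point a mouse and a bar at the mean. For *Ccl11* the males lie between 6.25 and 9.72 and the females between 1.14 and 3.20 CPM, in both genotypes, while for *Ccr2* the highest male (2.97) and the lowest female (2.90) overlap.

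Whether the effect of genotype differed between the sexes was tested as an interaction. No member passed in edgeR (0 of 28, and 0 of all 13541 genes), with 1 of 28 at an unadjusted p under 0.05 against 3.7% of all tested genes. Dendritic cell markers also differed in level by sex, at 205 to 543 CPM summed in females and 84.7 to 202 in males, and their part in the *Ccr2* and *Ccl11* values was not tested.

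The chemokine family outside the name rule and the signaling genes downstream were read as fixed lists. Of 7 further family genes 4 were tested, and 2 rose in iNICD, where 2.78% of all tested genes did. *Ccrl2*, a non-signaling receptor related to the chemokine receptors that presents chemerin, rose from 10.2 ± 2.99 to 18.1 ± 3.84 CPM (SD, n = 6 each, log2 fold change 0.83, SE 0.21, edgeR adjusted p = 0.0407). With a library left out *Ccrl2* passed in 4 of 12 fits, those without control replicate 3, 4 or 5 or iNICD replicate 5 (edgeR adjusted p 0.0231 to 0.0931 over the 12), and it was lost under upper quartile normalization (edgeR adjusted p = 0.0539). *Pitpnm3*, a phosphatidylinositol transfer protein described as a receptor for CCL18, a chemokine that mice lack, rose from 10.6 ± 3.94 to 29.5 ± 5.80 CPM (log2 fold change 1.47, SE 0.26, edgeR adjusted p = 0.00597), and passed in all 12 such fits. *Pf4*, the platelet CXC chemokine, was at 12.1 ± 3.69 and 11.3 ± 1.96 CPM.

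Of 31 listed genes of chemokine receptor signaling 27 were tested. *Gnai1*, an inhibitory G protein subunit, rose from 16.4 ± 1.66 to 24.4 ± 4.70 CPM (log2 fold change 0.57, edgeR adjusted p = 0.0206), and *Gng2*, a G protein gamma subunit, fell from 113 ± 20.9 to 76.4 ± 11.2 CPM (−0.56, edgeR adjusted p = 0.0327). *Gnai1* was lost without control replicate 1 or iNICD replicate 1, and *Gng2* passed only without control replicate 2, control replicate 5 or iNICD replicate 6 among the 12 fits with a library left out (edgeR adjusted p 0.0036 to 0.0805). The list median was 0.02. Both genes serve many G protein-coupled receptors, and the more abundant subunit *Gnai2* was at 234 ± 10.7 and 243 ± 12.3 CPM.

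Inflammatory cytokines, NF-kappaB genes and glycosaminoglycan genes gave a single call. Of 19 cytokines 9 were tested with 0 called (2 at an unadjusted p under 0.05, median log2 fold change −0.17), and of 20 NF-kappaB genes 18 were tested with 0 called (2 at an unadjusted p under 0.05, median −0.01). Among 14 genes that build or shed the glycosaminoglycans to which chemokines bind, *Gpc1*, a heparan sulfate proteoglycan core, fell from 532 ± 56.8 to 327 ± 81.4 CPM (−0.70, edgeR adjusted p = 0.0182), and passed in all 12 fits with a library left out.

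Of the other cell type markers, *Mcpt4*, a mast cell protease, rose from 0.372 ± 0.402 to 4.93 ± 2.25 CPM (log2 fold change 3.70, edgeR adjusted p = 0.00210), while *Cpa3* and *Cma1* were under the filter, *Cpa3* at 0.301 CPM in controls and 0.291 in iNICD and *Cma1* at 0.312 and 0.289. *Itga2b*, a platelet integrin, fell from 4.84 ± 1.08 to 2.96 ± 0.315 CPM (−0.71, edgeR adjusted p = 0.0286), and with a library left out passed only without control replicate 3, control replicate 5 or iNICD replicate 5. Hemoglobin and *Alas2* transcripts summed to 53.4 to 233 CPM in controls and 24.5 to 131 in iNICD, with 0 of 4 called and 4 of 4 at an unadjusted p under 0.05. Blood endothelium, fibroblast, smooth muscle and mesothelium markers had 0 calls in edgeR, with 2 of 10 blood endothelium markers and 0 of the others at an unadjusted p under 0.05.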

How the data were processed

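Bulk LA RNA from 12 mice was sequenced as single-end reads after removal of ribosomal RNA. The authors deposited raw read counts per gene name and a length in bases per gene name, another deposited column that was used only for CPM per kb. The submitters' processing notes name cutadapt, STAR 2.4.2a, featureCounts from Subread, edgeR and build mm10. The study's methods also describe a second route through TopHat2 and HTSeq, and which of them made the table, or whether counting used strand, is not given in the sources used here. The table had 0 columns of no known sample. Libraries held 21432632 to 27182038 counts. Mitochondrially encoded genes were in the table (37 names).

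Counts were scaled by TMM in edgeR 4.0.16 (R 4.3.3), genes above 1 CPM in at least 6 libraries were kept, and iNICD was compared with control by glmQLFit and glmQLFTest, two-sided, with p-values adjusted by Benjamini and Hochberg over every gene tested and a threshold of 0.05. DESeq2 1.42.0, the edgeR exact test, other normalizations and filters, sex as a covariate, replicate blocks and leaving out each library were alternatives. Exact permutation tests of single genes used the difference of mean normalized CPM, two-sided. The scripts were tested on simulated data. No label says that a shared replicate number marks a shared litter, batch or day, and not every same-numbered pair deviated together, so the numbers were not taken to pair the mice. Replicate files differed by more than sampling noise.

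The members, lists and tests were chosen with earlier results of these data known. Members described in full were those past the threshold, those whose groups did not overlap, the 3 ligands and 3 receptors with the highest level per kb, and the 3 tested members with the lowest unadjusted p in each direction, with up to 3 more per role class by level. Of each list, the changed genes and those with the highest level could be named. *Ccl2*, *Ccl7*, *Ccl11*, *Ccr2*, *Ccr1*, *Cxcl1* and the other genes named outside this rule, the comparison of sexes and the extra tests of *Cxcl5* and *Cxcl1* were chosen after their values were seen. Positions came from GENCODE M21 on GRCm38, which matched 55 of 57 members to 1 gene each. RefSeq promoters matched 41 members, and those shown were chosen after the matches were known. *Ccl2*, *Ccl7*, *Ccl11* and *Cxcl5* had no entry. The values of 1 tested member are not reported here, and it stays in the counts.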

Additional observations from a re-analysis of the deposited data

Results flagged for a closer look

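A library was flagged where its gap to the nearest of the other 5 in its group was large for the group's range (Dixon's criterion, critical value 0.625 for 6 libraries). Over 56 groups examined, the error rate of the criterion for independent, normally distributed values would give about 2.8. Genes of the same library can vary together and CPM need not be normally distributed, so 2.8 is not a measure of chance for these data. There were 11 flags, each at the high end of its group, 6 of them in control replicate 5. In that library *Ccl6* was at 159 CPM (others 14.2 to 45.1), *Ccl9* at 72.1 (5.18 to 15.7), *Ccl2* at 20.9 (0.925 to 5.42), *Ccl7* at 14.8 (0.538 to 4.17), *Ackr2* at 19.9 (1.65 to 3.98) and *Ccr1* at 4.96 CPM (0.231 to 1.86).

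The other 5 were spread over 4 libraries. *Cxcl13* was at 11.6 CPM in control replicate 2 (others 1.85 to 3.89) and at 7.10 in iNICD replicate 2 (others 0.251 to 1.79). *Cx3cr1* was at 7.34 CPM in control replicate 2 (others 1.54 to 3.04). *Ccl5* was at 3.27 CPM in control replicate 3 (others 0.786 to 1.501), and *Ccl8* was at 13.1 CPM in iNICD replicate 3 (others 2.78 to 6.60).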

How the results depend on the processing

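For the 11 named genes, 231 values were computed under the alternatives: 218 kept their direction and side of the threshold, 9 reversed and 4 crossed the threshold. Those that reversed had main values near 0: *Cxcl12* (−0.11 to 0.040 over the fits that leave out a library, positive without control replicate 2, control replicate 5 or iNICD replicate 1, at 0.019, 0.040 and 0.00089), *Cxcr4* (−0.011 to 0.23, negative without control replicate 5) and *Ackr2* (−0.26 to 0.82, positive without control replicate 5, iNICD replicate 1 or iNICD replicate 2, at 0.82, 0.047 and 0.035). The labels do not pair the mice, and same-numbered libraries correlated at −0.15 to 0.43 for the numbers in the titles, over 0.1 in 4 of 6 pairs, with 3 of 6 libraries correlating best with their own number. With the title number as a replicate block 1 member passed, *Cxcl13* (−1.75, edgeR adjusted p = 0.0451, where 3.46% of all genes passed), *Ackr2* was 0.33, and 1 list gene was lower, *Gng2* being lost (edgeR adjusted p = 0.0707), as was the marker *Itga2b* (0.0662). With the number in the descriptions 1 member passed, *Cxcl13* again (−1.74, edgeR adjusted p = 0.04995, where 3.11% of all genes passed), *Ackr2* was 0.34, and the list genes *Ccrl2* (edgeR adjusted p = 0.117) and *Itga2b* (0.108) were lost. Over the same 28 genes, leaving out each library gave 0 to 1 members higher and 0 lower (*Cx3cr1* without control replicate 2, 0.99, and *Ccl21a* without iNICD replicate 2, 0.81). Under DESeq2, the exact test, RLE or upper quartile scaling, the filter of filterByExpr and sex as a covariate, 0 of these members passed.

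Over all tested genes 377 were higher and 181 lower. DESeq2 gave 615 and 444, the exact test 279 lower, and leaving out a library 273 to 495 higher and 92 to 304 lower, the largest counts without control replicate 5. The lists of 72 pathway genes (3 higher, 2 lower) gave 1 to 4 and 1 to 2 with a library left out, with *Ccrl2*, *Gnai1* or *Gng2* lost in some, and the 98 markers (1 higher, 6 lower) gave 1 to 2 and 4 to 8, with 3 higher in DESeq2. For the sexes, *Ccr2* ran from −1.06 to −0.90 and in DESeq2 was −0.99. Leaving out control replicate 5 gave 0 interactions. The causes of these shifts were not tested. Of the 57 genes, 29 lay under the filter, which is relative to library size.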
